A study of Mus musculus with 3 samples.

Results

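The genes described are 54 nuclear genes, of 32285 in the tables, for subunits of the mitochondrial respiratory chain and ATP synthase. They were listed by symbol, not by their measured level: 21 of complex I, 4 of complex II, 6 of complex III, 10 of complex IV and 13 of complex V. Their levels were read in bone marrow cells of C57BL/6J mice, taken from femur and tibia, enriched on a Ficoll gradient and profiled as single cells by droplet sequencing from the 3′ end of transcripts. There are 3 groups with 1 library each: Sham, MI (myocardial infarction, after ligation of the coronary artery named LAD) and MI-E, labelled as MI with EMPA, an agent that the labels give only by this abbreviation. The same surgery text stands with all 3 libraries, and it does not say how Sham differed. Age, sex, dose, time after surgery and the number of animals pooled are not given in the sources used here. With 1 library per group no difference was tested, and each value describes these libraries, in which group, animals and library cannot be told apart. The study's title asks about naive B lymphocytes of the marrow after myocardial infarction.

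Oxidative phosphorylation passes electrons from NADH and succinate through complexes I to IV to oxygen, and complex V (ATP synthase) uses the proton gradient built on the way to make ATP. Most subunits are encoded in the nucleus and imported, while a small core of complexes I, III, IV and V is encoded in mitochondrial DNA; complex II is wholly nuclear. In marrow, early erythroid cells hold many mitochondria and lose them as they fill with haemoglobin, neutrophils hold few and rely largely on glycolysis, and resting B cells are small cells with low biosynthesis.

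After filtering, 21155, 20459 and 19573 cells remained in Sham, MI and MI-E, with medians of 2122, 3113 and 2575 UMIs (counted molecules) and 2.68, 1.83 and 2.45% mitochondrial UMIs. Clusters were named from marker genes, and a class is called "-like" for that reason. A class was compared where every library gave it 200 cells or more, which left 15, on 690328 to 22507490 UMIs per class and library. A level is a gene's share of all UMIs of the class, on the usual CPM scale. One tag is counted per transcript, so CPM compares molecules between genes without division by length. Sets of 3 values stand in the order Sham, MI, MI-E. Log2 ratios carry exact 95% intervals for counting error only. In the class called stem and multipotent progenitor-like, Pf4, a megakaryocyte gene, stood among the leading genes, and the small pre-B-like, mature naive B-like, Vcan-led monocyte-like and Retnlg-led neutrophil-like classes are each made mostly of one cluster in Sham and of another in MI and MI-E.

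The summed level of the 54 genes differed 3.72-fold between the highest and the lowest class, as means over the 3 libraries. It was highest in Car1-led erythroid-like cells, an early erythroid class named for carbonic anhydrase 1, at 32761, 28902 and 27094 CPM in Sham, MI and MI-E. It was lowest in Retnlg-led neutrophil-like cells, the mature end of the neutrophil series, at 7914, 8776 and 7145 CPM. Ass1-led monocyte-like cells held 25557, 29243 and 27585 CPM, a range that overlaps the Car1-led erythroid-like one; their genes of dividing cells summed to 12967, 10404 and 11297 CPM. Myeloid progenitor-like cells held 23281, 26162 and 24604 CPM, which overlaps the range of the Ass1-led class. Vcan-led monocyte-like cells held 20733, 23829 and 21418 CPM and overlap the stem and multipotent progenitor-like cells, at 21095, 20162 and 19090.5 CPM. Below these stood plasmacytoid dendritic-like cells (17989, 18004 and 15280.4 CPM), basophil and mast-like cells (17864, 15227 and 13581), small pre-B-like cells (16386, 16066 and 13838), immature B-like cells (15887, 14356 and 12584) and T-like cells (16005, 12944 and 12008). The ranges of these 5 classes over the 3 libraries overlap, so their order is not settled.

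Among the 3 B classes compared, the level was lowest at the mature stage. Mature naive B-like cells held 12253, 11256 and 10181 CPM, below the small pre-B-like and immature B-like cells of the same library in all 3 libraries. In UMIs per cell, which also follow the size and depth of a cell, mature naive B-like cells held 17.6, 11.9 and 11.3 member UMIs, and Car1-led erythroid-like cells 391, 336 and 326. The neutrophil series stepped down in order of its stages within every library: neutrophil precursor-like cells held 12923, 13398 and 12274 CPM, Ltf-led neutrophil-like cells 9516, 10159 and 8651 CPM and Retnlg-led cells the 7914, 8776 and 7145 CPM given above. Erythroid cells likewise differed by stage: haemoglobin-led erythroid-like cells held 7336, 12590.5 and 9723 CPM, with Sham the lowest and MI the highest library. This range overlaps the mature naive B-like and both neutrophil-like classes. Per cell, haemoglobin-led erythroid-like cells held 28.4, 50.9 and 35.3 member UMIs and Retnlg-led neutrophil-like cells 19.8, 21.3 and 15.4. Both lay above mature naive B-like cells in each library, so which class is lowest depends on the measure.

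**Figure D1:**
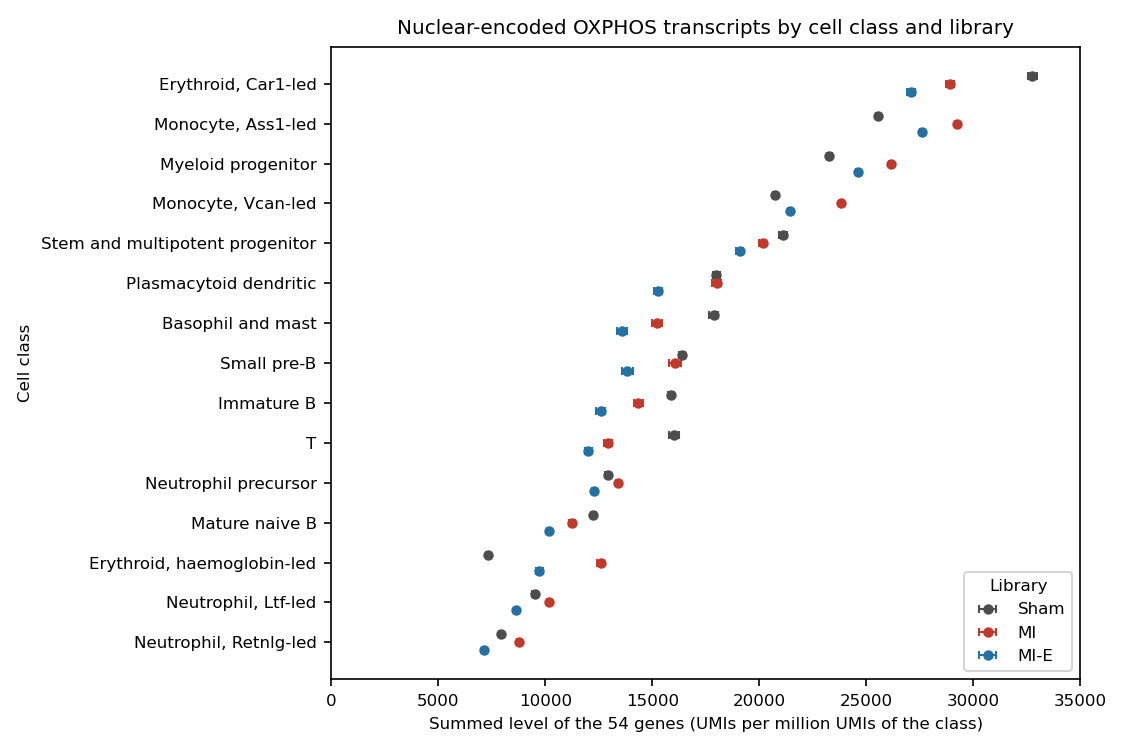
Summed level of the 54 genes in CPM (horizontal axis) for each of the 15 cell classes (vertical axis), with 1 point per library (Sham, MI, MI-E); bars are exact 95% Poisson intervals for counting error only. Car1-led erythroid-like cells lie at 32761, 28902 and 27094 CPM and Retnlg-led neutrophil-like cells at 7914, 8776 and 7145 CPM, and in 15 of 15 classes the MI-E point lies below the MI point.

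Complex IV or V gave the most molecules in every class and library except 1, and complex II gave the fewest in all. The exception was Ltf-led neutrophil-like cells of MI-E, where complex I led (2661 CPM against 2640.5 CPM for complex IV). Complex I here counts Ndufa4, which has since been assigned to complex IV. Ndufa4 held 161 CPM even in its lowest Sham class, more than the gap between these sums. The lead of complex I may therefore rest on that placement. In mature naive B-like cells of Sham, MI and MI-E, complex I (NADH dehydrogenase) summed to 3321, 3092 and 2721 CPM over 21 genes. Complex II (succinate dehydrogenase) summed there to 258, 274 and 269 CPM over 4 genes, and complex III (cytochrome bc1) to 943, 923 and 805 CPM over 6. Complex IV (cytochrome c oxidase) summed to 3565, 3128 and 2897 CPM over 10 genes, and complex V to 4166, 3839 and 3489.6 CPM over 13. In Car1-led erythroid-like cells complexes IV and V reached 9973, 8623 and 7964 CPM and 10384, 9052 and 8804 CPM.

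The leading members of each complex are given by mean level over 15 classes and 3 libraries. In complex I these were Ndufa4, first described as a complex I subunit and since assigned to complex IV (579 CPM), Ndufb7 (344) and Ndufb9 (316). Complex II was led by Sdha, the flavoprotein that oxidises succinate (98.3 CPM), and Sdhb, its iron-sulphur subunit (87.1). In complex III the leaders were Uqcr11 (440.0 CPM), Uqcrq (374) and Uqcr10 (333). In complex IV they were Cox8a (891 CPM), Cox4i1 (674) and Cox7c (665). In complex V they were Atp5e, the epsilon subunit (756 CPM), Atp5l, subunit g (674), and Atp5h, subunit d (642). The catalytic pair Atp5a1 (alpha) and Atp5b (beta), present in several copies per enzyme, stood at 375 and 376 CPM, below Atp5e, Atp5l and Atp5h.

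Nearly all members followed the order of classes set by the sum. In Sham, 42 of 54 were highest in Car1-led erythroid-like cells. By the same measure, 53 were lowest in haemoglobin-led erythroid-like cells (30) or Retnlg-led neutrophil-like cells (23). These ranks are of shares of all UMIs of a class, haemoglobin UMIs included, and not of UMIs per cell. The exception was Ndufb9, lowest in mature naive B-like cells at 156 CPM. The fold between a member's highest and lowest class in Sham had a median of 5.85. It was smallest for Atp5l, from 327 to 957 CPM, a fold of 2.92. It was largest for Atp5g1, one of the 3 genes for the ring-forming subunit c of ATP synthase, from 43.7 CPM in Retnlg-led neutrophil-like cells to 1385 CPM in Car1-led erythroid-like cells, a fold of 31.7. Over the 45 points of class and library, which share libraries and depth, the members least like the median of the others were all of complex I: Ndufb7 (Pearson r 0.489), Ndufb9 (0.661) and Ndufa1 (0.676), as a description.

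Set against Sham, the MI library showed no single direction: the median log2 ratio of the members was below 0 in 8 classes and above 0 in 7, from -0.36 in T-like cells to 0.74 in haemoglobin-led erythroid-like cells. Lymphoid classes lay below 0 and monocytes, neutrophils and their progenitors above it, except that neutrophil precursor-like cells were below 0 with median-of-ratios or TMM scaling and plasmacytoid dendritic-like cells, grouped here with the lymphoid classes, were just above 0 with a total without mitochondrial, ribosomal, haemoglobin and receptor genes. The genes compared are all those that averaged 10 CPM or more over the 3 libraries, and all 54 members were among them in each class.

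**Figure D2:**
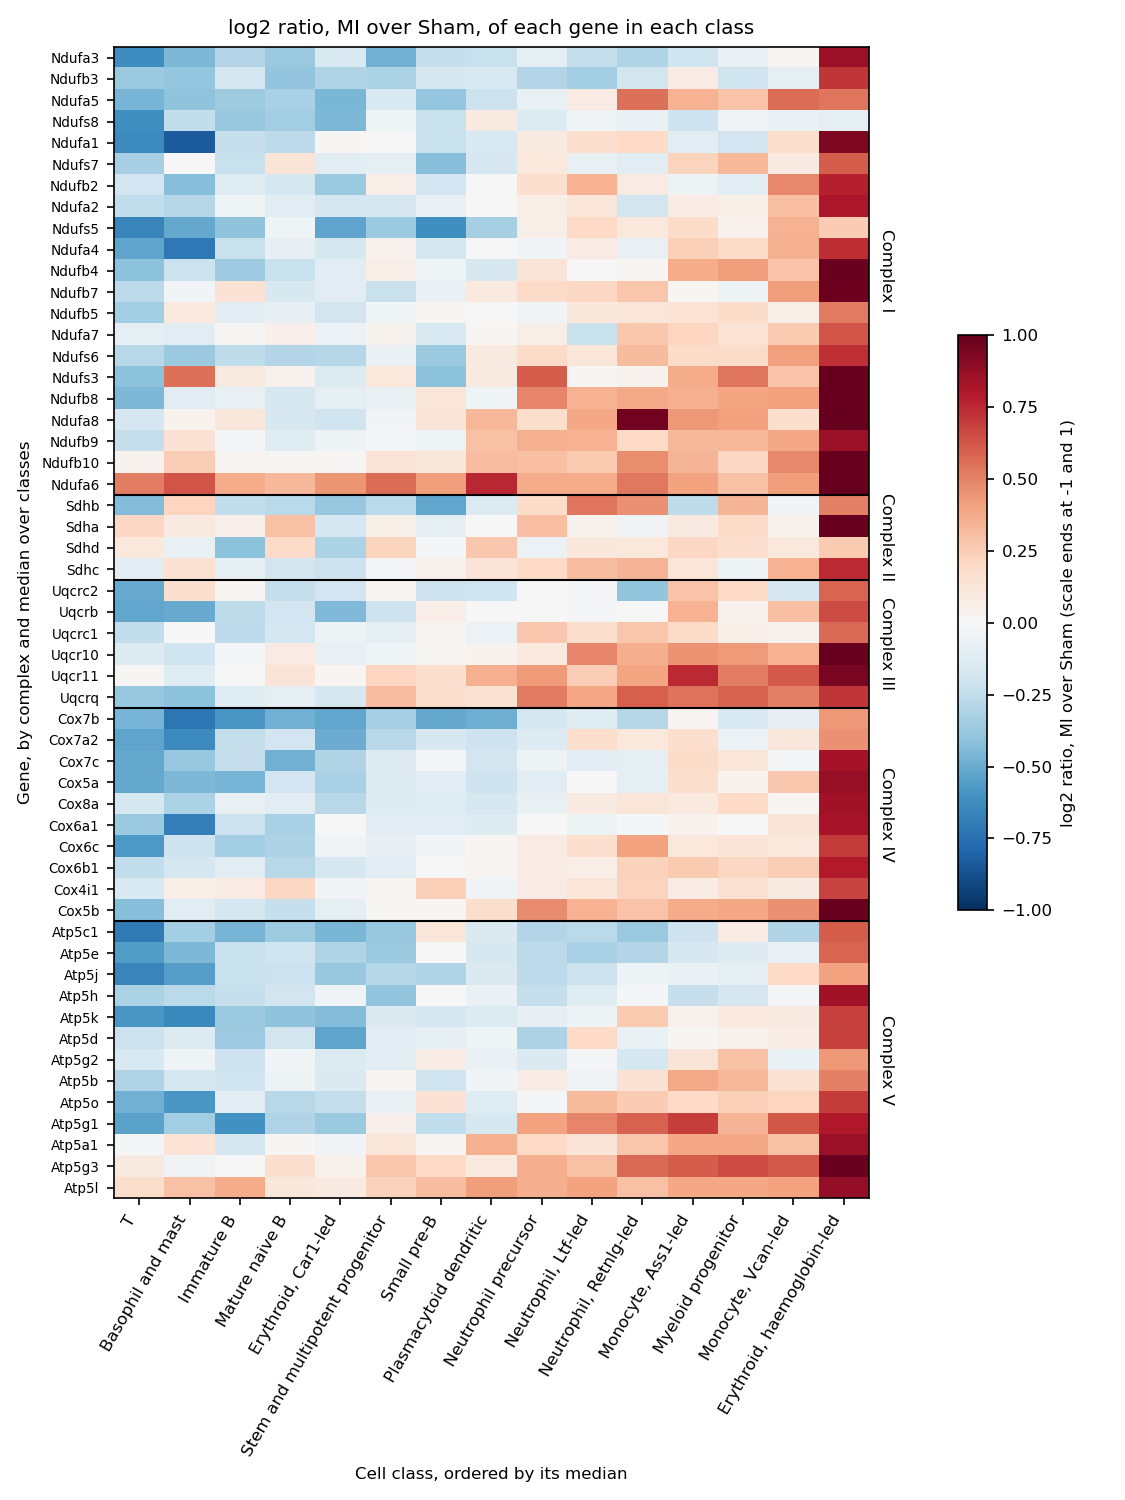
Log2 ratio of MI over Sham (colour) for each of the 54 genes, grouped by complex, in each of the 15 classes. Ndufa6, Ndufb10 and Atp5l are above 0 in 15 of 15 classes, T-like cells are the lowest class by median (-0.36) and haemoglobin-led erythroid-like cells the highest (0.74).

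In mature naive B-like cells, the class the study is named for, 41 of 54 members were lower in MI than in Sham, against 33.3% of the genes compared; the members' median was -0.18 and that of all genes 0.13. The Sham cells were nearly all of one cluster and the MI cells of another: 95.2% of Sham cells and 93.7% of MI cells. In the first cluster the summed level was 12260.0, 12473 and 10439 CPM, on only 135 MI cells. In the second it was 12090.0, 11168 and 10140.0 CPM, on only 159 Sham cells. MI thus lay below Sham in the second only, and in the first the counting intervals of Sham and MI overlap. S100a8 and S100a9, neutrophil genes that can be found as free RNA in other cells, stood in this class at 3.82, 4.75 and 3.89% of their whole-library level. Such percentages are set against each library's own level, which changes with its mix of cells, so they do not compare levels between libraries. The part of these genes in the result was not tested. Ndufa6, an accessory subunit of complex I, stood at 221, 277 and 252 CPM, a log2 ratio of MI over Sham of 0.33 (0.18 to 0.47). Cox7b, a small subunit of complex IV, stood at 151, 108 and 98.8 CPM, a ratio of -0.48 (-0.70 to -0.27). Cox7c, also of complex IV, stood at 518, 372 and 456 CPM, with -0.48 (-0.59 to -0.36) for MI over Sham and 0.29 (0.17 to 0.42) for MI-E over MI; MI was its lowest library. The 4 highest members were Ndufa6, Sdha, Cox4i1 and Sdhd, at 0.19 to 0.33, and the 4 lowest Cox7b, Cox7c, Atp5k and Ndufb3, at -0.48 to -0.39. The interval of Sdhd holds 0, at 0.19 (-0.17 to 0.54).

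The other lymphoid classes lay lower still or close to 0. In immature B-like cells, 43 of 54 members were lower in MI than in Sham, against 41.5% of the genes compared, with a median of -0.20 for members and 0.07 for all genes. Its highest members were Atp5l, Ndufa6, Ndufb7 and Ndufa8 (0.11 to 0.37) and its lowest Atp5g1, Cox7b, Atp5c1 and Cox5a (-0.60 to -0.46). Atp5g1 stood there at 301, 198 and 175 CPM, a ratio of -0.60 (-0.81 to -0.40) for MI over Sham. In small pre-B-like cells, 34 of 54 members were lower in MI than in Sham, against 47.0% of the genes compared, with a median of -0.06 for members and 0.03 for all genes. Highest were Ndufa6, Atp5l, Cox4i1 and Atp5g3 (0.20 to 0.42) and lowest Ndufs5, Sdhb, Cox7b and Ndufs7 (-0.62 to -0.43). Ndufs5, an accessory subunit of complex I, stood there at 255, 167 and 141 CPM, a ratio of -0.62 (-0.91 to -0.34). The small pre-B-like cluster with 99.0% of the Sham cells held 16398, 15781 and 13546 CPM, and the one with 82.5% of the MI cells 15265, 16115 and 13905 CPM, on 31 Sham cells; within each cluster the counting intervals of Sham and MI overlap. In plasmacytoid dendritic-like cells, 31 of 54 members were lower in MI than in Sham, against 39.8% of the genes compared, with a median of -0.03 for members and 0.09 for all genes. Its highest members were Ndufa6, Atp5l, Uqcr11 and Atp5a1 (0.35 to 0.75) and its lowest Cox7b, Ndufs5, Ndufa3 and Ndufa5 (-0.49 to -0.21). Cox7b was among the 4 lowest members in all 3 of these classes.

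T-like cells had the lowest median of any class. There 47 of 54 members were lower in MI than in Sham, against 43.6% of the genes compared, with a median of -0.36 against 0.07 for all genes. Atp5c1, the gamma subunit that turns inside the ATP synthase head, stood at 218, 133 and 137 CPM, a ratio of -0.71 (-1.0 to -0.42) for MI over Sham. Atp5j, coupling factor 6, stood at 353, 223 and 188 CPM, a ratio of -0.66 (-0.89 to -0.44). The 4 lowest were Atp5c1, Atp5j, Ndufs5 and Ndufa1 (-0.71 to -0.63). Ndufa6 went the other way, at 207, 295 and 252 CPM and a ratio of 0.51 (0.27 to 0.76); the rest of the 4 highest were Sdha, Atp5l and Sdhd, of which only Atp5l has an interval above 0, at 0.17 (0.02 to 0.33). Genes of dividing cells were also lower in the MI library of this class, at 2367, 1606 and 1391 CPM in Sham, MI and MI-E, and their part in the result was not tested.

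Monocyte-like and myeloid progenitor-like cells had higher member levels in MI than in Sham. In Vcan-led monocyte-like cells, 44 of 54 members were higher in MI than in Sham, against 51.3% of the genes compared, with a median of 0.20 against 0.01 for all genes. Atp5g1 stood at 297, 456 and 309 CPM, a ratio of 0.62 (0.56 to 0.68) for MI over Sham and -0.56 (-0.62 to -0.51) for MI-E over MI, so that MI was high and MI-E close to Sham. Uqcr11, a small subunit of complex III, stood at 417, 638 and 537 CPM, a ratio of 0.61 (0.56 to 0.66). Atp5g3 stood at 228, 348 and 335 CPM, a ratio of 0.61 (0.54 to 0.68). Ndufa5, of complex I, completes the 4 highest, at 0.56 (0.46 to 0.66). On the other side were Cox7b, Ndufb3, the complex III core protein Uqcrc2 and, lowest, Atp5c1, at 361, 294 and 316 CPM and a ratio of -0.30 (-0.36 to -0.24). Here too the libraries sit in different clusters. The cluster with 98.9% of the Sham cells had summed levels of 20732, 20489 and 19045 CPM in Sham, MI and MI-E, on only 36 MI and 82 MI-E cells. The cluster with 99.1% of the MI cells had 20854, 23851 and 21470.0 CPM, on 31 Sham cells, so MI was higher than Sham in that cluster, while in the first the MI interval of 19659 to 21345 CPM holds the Sham value. S100a8 and S100a9 stood in this class at 3.18, 18.6 and 12.5% of their whole-library level, and their part in the result was not tested.

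In Ass1-led monocyte-like cells, 45 of 54 members were higher in MI than in Sham, against 49.1% of the genes compared, with a median of 0.19 for members and -0.01 for all genes. Highest were Uqcr11, Atp5g1, Atp5g3 and Uqcrq (0.54 to 0.75) and lowest Sdhb, Atp5h, Atp5c1 and Ndufs8 (-0.25 to -0.21). Uqcr11 stood there at 531, 892 and 839 CPM, a ratio of 0.75 (0.70 to 0.80) for MI over Sham. Uqcrq, a small subunit of complex III, stood at 576, 837 and 742 CPM, a ratio of 0.54 (0.49 to 0.59). S100a8 and S100a9 stood at 4.37, 17 and 12.1% of their whole-library level in this class, and their part in the result was not tested. In myeloid progenitor-like cells, 42 of 54 members were higher in MI than in Sham, against 62.0% of the genes compared, with a median of 0.19 for members and 0.10 for all genes. Its highest members were Atp5g3, Uqcrq, Ndufs3 and Uqcr11 (0.51 to 0.66) and its lowest Ndufb3, Ndufa1, Atp5h and Cox7b (-0.20 to -0.15). Atp5g3 stood there at 317, 499.6 and 474 CPM, a ratio of 0.66 (0.58 to 0.73) for MI over Sham. Here S100a8 and S100a9 stood at 180, 59.2 and 69.8% of their whole-library level, and their part was likewise not tested.

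Across the neutrophil series the member medians of MI over Sham lay between 0.07 and 0.13. In neutrophil precursor-like cells, 33 of 54 members were higher in MI than in Sham, against 63.0% of the genes compared; the members' median of 0.07 lay below the all-gene median of 0.10, and with median-of-ratios or TMM scaling it was below 0, at -0.03 and -0.02. Highest were Ndufs3, Uqcrq, Ndufb8 and Cox5b (0.47 to 0.60) and lowest Atp5d, Atp5c1, Ndufb3 and Atp5j (-0.31 to -0.26). In Ltf-led neutrophil-like cells, 35 of 54 members were higher in MI than in Sham, against 57.3% of the genes compared, with a median of 0.12 for members and 0.06 for all genes. Its highest members were Sdhb, Uqcr10, Atp5g1 and Atp5l (0.40 to 0.54) and its lowest Ndufb3, Atp5e, Atp5c1 and Ndufa3 (-0.34 to -0.24). In Retnlg-led neutrophil-like cells, 36 of 54 members were higher in MI than in Sham, against 46.5% of the genes compared, with a median of 0.13 for members and -0.03 for all genes. Highest were Ndufa8, Uqcrq, Atp5g1 and Atp5g3 (0.57 to 0.96) and lowest Uqcrc2, Atp5c1, Ndufa3 and Atp5e (-0.40 to -0.29). In the last class Ndufa8, a complex I subunit, stood at 82.6, 161 and 125 CPM, a ratio of 0.96 (0.78 to 1.15) and the largest there. Atp5e stood at 443, 362 and 329 CPM, a ratio of -0.29 (-0.39 to -0.20). The cluster with 95.2% of the Sham cells of this class held 7922, 9371 and 7758 CPM in Sham, MI and MI-E, on 214 MI and 131 MI-E cells. That with 91.3% of the MI cells held 7679, 8703 and 7098 CPM, on 72 Sham cells. MI was highest in both.

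The erythroid classes differed in direction. In Car1-led erythroid-like cells, 47 of 54 members were lower in MI than in Sham, against 44.2% of the genes compared, with a median of -0.17 against 0.04. Cox7a2 stood there at 802, 570.1 and 566 CPM, a ratio of -0.49 (-0.58 to -0.40). The 4 highest were Ndufa6, Atp5l, Atp5g3 and Uqcr11 and the 4 lowest Ndufs5, Atp5d, Cox7b and Cox7a2. Ndufa6 stood at 249, 338 and 303 CPM, a ratio of 0.44 (0.30 to 0.57). Haemoglobin transcripts, which mark later erythroid stages, stood in this class at 9.94, 77.3 and 42.7% of their whole-library level. That level changes with the mix of cells in a library, so these percentages do not compare levels between libraries. The part of haemoglobin transcripts in the result was not tested. In haemoglobin-led erythroid-like cells, 53 of 54 members were higher in MI than in Sham, against 78.4% of the genes compared, with a median of 0.74 against 0.50. The 4 highest were Ndufb10, Ndufa6, Ndufs3 and Ndufb8 (1.2 to 1.33) and the 4 lowest Ndufs8, Ndufs5, Sdhd and Atp5j (-0.09 to 0.40). Ndufb10, an accessory subunit of complex I, stood there at 94.0, 236 and 126 CPM, a ratio of 1.33 (1.13 to 1.53). The member that was not higher, Ndufs8, stood at 30, 28.1 and 36.7 CPM, and its interval of -0.09 (-0.58 to 0.38) holds 0. Ribosomal protein genes moved with this result, at 5.58, 12 and 8.61% of UMIs, and so did the mix of its 2 clusters: the one with the higher member level held 49.8, 64.5 and 58.9% of the cells. Within that cluster the summed level was 10305, 15585 and 12212 CPM and within the other 3767, 5646 and 5058 CPM, so MI was highest within each. With median-of-ratios or TMM scaling in place of the class total, the median of 0.74 became 0.26 (both), and with a total without mitochondrial, ribosomal, haemoglobin and receptor genes 0.38.

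In stem and multipotent progenitor-like cells, 35 of 54 members were lower in MI than in Sham, against 47.5% of the genes compared, with a median of -0.07 for members and 0.02 for all genes. Its highest members were Ndufa6, Uqcrq, Atp5g3 and Atp5l (0.23 to 0.56) and its lowest Ndufa3, Atp5h, Atp5c1 and Ndufs5 (-0.48 to -0.37). With doublets kept, the median of this class turned to 0.13. In basophil and mast-like cells, 40 of 54 members were lower in MI than in Sham, against 45.5% of the genes compared, with a median of -0.20 for members and 0.05 for all genes. Highest were Ndufa6, Ndufs3, Atp5l and Ndufb10 (0.25 to 0.63) and lowest Ndufa1, Cox7b, Ndufa4 and Cox6a1 (-0.83 to -0.68). In basophil and mast-like cells Ndufa1 stood at 412, 232 and 284 CPM, a ratio of -0.83 (-1.05 to -0.61). Ndufa4 stood there at 882, 537 and 516 CPM, a ratio of -0.72 (-0.86 to -0.57). Both were at their highest in Sham. Haemoglobin UMIs in this class, set against all cells of the same library, stood at 6.79, 20.3 and 7.45% in Sham, MI and MI-E. These percentages do not compare levels between libraries, because the level over all cells changes with the mix of cells. By CPM, the median of the haemoglobin genes for MI over Sham was below 0 in 14 of 15 classes. Genes of dividing cells summed in basophil and mast-like cells to 6708, 3499 and 3614 CPM, so Sham was the highest library. The part of the haemoglobin and dividing-cell genes in the result was not tested.

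Between MI-E and MI the direction was the same in every class: the median log2 ratio of the members was below 0 in 15 of 15 classes, from -0.36 in haemoglobin-led erythroid-like cells to -0.09 in stem and multipotent progenitor-like cells, while the all-gene median was above 0 in each. The MI library is shared with the comparison against Sham, so a member that counts high in MI by chance is high in one ratio and low in the other. No share of common directions is therefore given. Neutrophil and haemoglobin genes, which can be found as free RNA in other cells, were also lower in MI-E in most classes. The median of S100a8 and S100a9 was below 0 in 14 of 15 classes (-2.04 to 0.26) and that of 4 haemoglobin genes in 13 (-1.66 to 0.15). The 15 classes include neutrophil-like and erythroid-like ones, where these are the cells' own transcripts, and free RNA itself was not measured. The part of these genes in the members' difference was not tested.

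**Figure D3:**
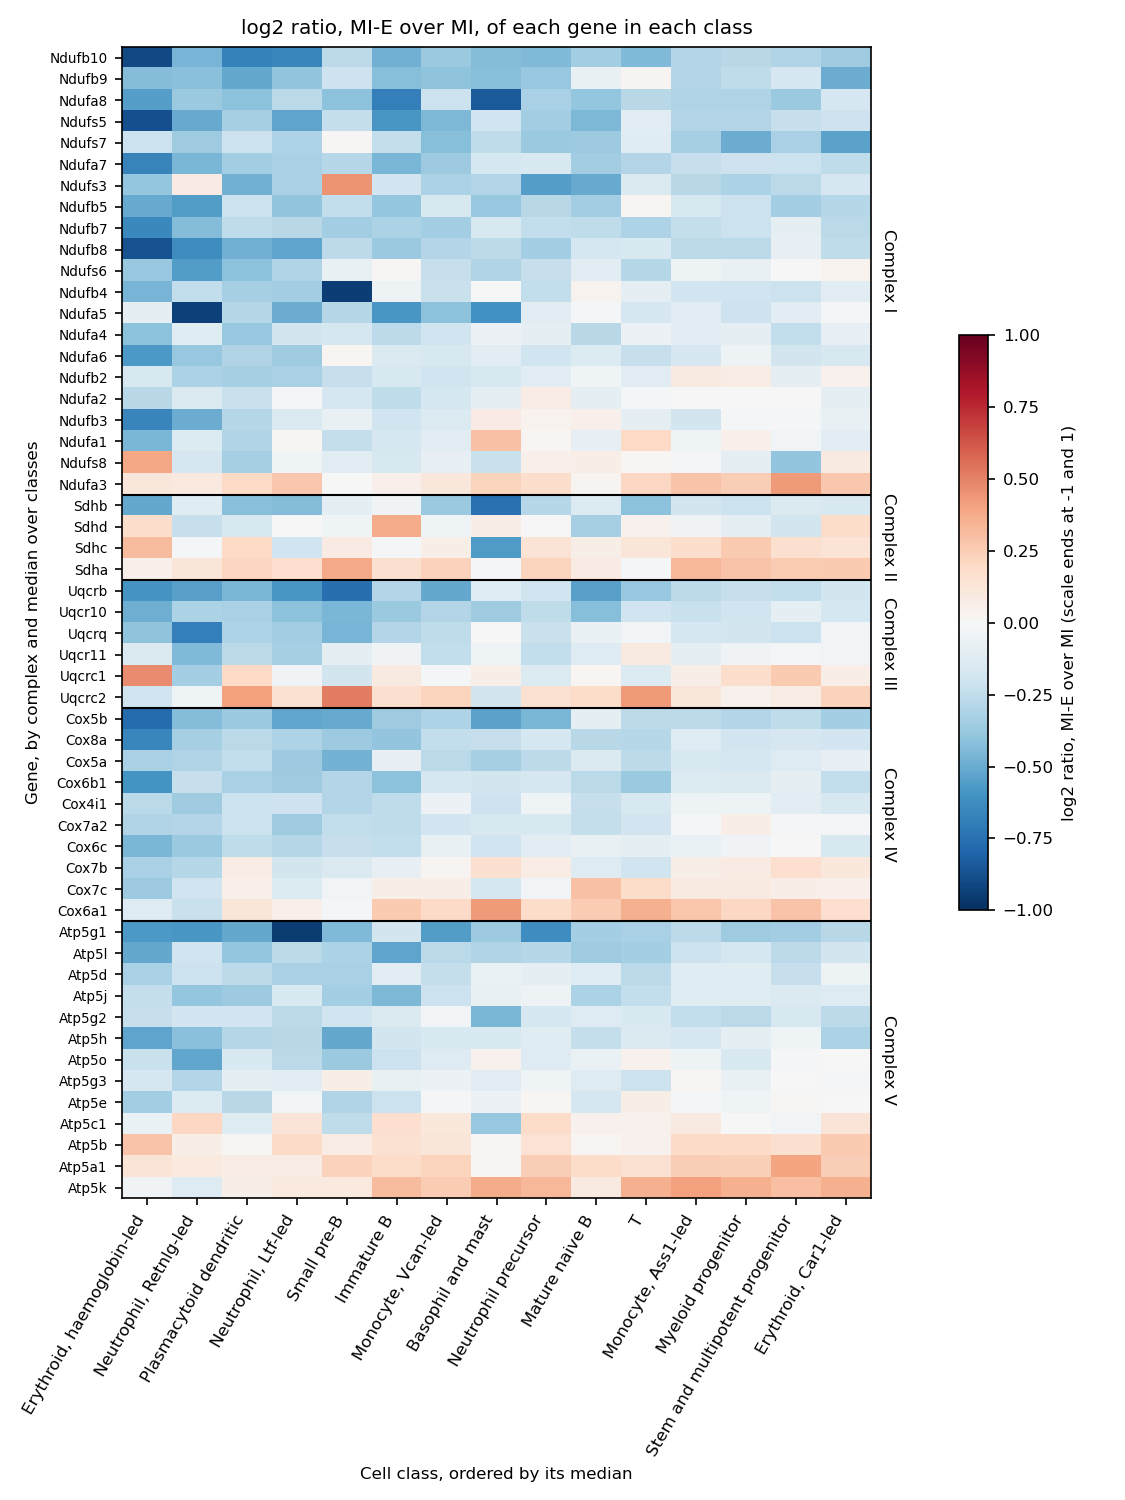
Log2 ratio of MI-E over MI (colour) for each of the 54 genes, grouped by complex, in each of the 15 classes. 24 genes are below 0 in 15 of 15 classes, and Ndufa3, Atp5a1 and Atp5b are above 0 in 15 of 15.

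In mature naive B-like cells, 40 of 54 members were lower in MI-E than in MI, against 42.1% of the genes compared; the medians were -0.13 for members and 0.05 for all genes. Cox7c (0.29) and Cox6a1 (0.25) were highest there, and Uqcrb (-0.54) and Ndufs3 (-0.50) lowest. Uqcrb, a small subunit of complex III, stood at 159, 139 and 95.7 CPM, a ratio of MI-E over MI of -0.54 (-0.77 to -0.32); MI-E was its lowest library. In immature B-like cells, 42 of 54 members were lower in MI-E than in MI, against 42.3% of the genes compared; the medians were -0.19 for members and 0.08 for all genes. Sdhd (0.37) and Atp5k (0.32) were highest there, and Ndufa8 (-0.68) and Ndufs5 (-0.58) lowest. In small pre-B-like cells, 43 of 54 members were lower in MI-E than in MI, against 45.2% of the genes compared; the medians were -0.24 for members and 0.05 for all genes. Uqcrc2 (0.51) and Ndufs3 (0.45) were highest there, and Ndufb4 (-0.94) and Uqcrb (-0.75) lowest. In T-like cells, 37 of 54 members were lower in MI-E than in MI, against 44.8% of the genes compared; the medians were -0.13 for members and 0.04 for all genes. Uqcrc2 (0.42) and Atp5k (0.36) were highest there, and Ndufb10 (-0.45) and Sdhb (-0.41) lowest. In plasmacytoid dendritic-like cells, 43 of 54 members were lower in MI-E than in MI, against 41.8% of the genes compared; the medians were -0.28 for members and 0.07 for all genes. Uqcrc2 (0.41) and Sdha (0.22) were highest there, and Ndufb10 (-0.68) and Atp5g1 (-0.51) lowest. Some of the highest members have intervals that hold 0, such as Sdhd in immature B-like cells at 0.37 (-0.13 to 0.88) and Ndufs3 in small pre-B-like cells at 0.45 (-0.09 to 1.02).

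In Vcan-led monocyte-like cells, 43 of 54 members were lower in MI-E than in MI, against 38.5% of the genes compared; the medians were -0.18 for members and 0.08 for all genes. Atp5k (0.25) and Sdha (0.23) were highest there, and Atp5g1 (-0.56) and Uqcrb (-0.51) lowest. In Ass1-led monocyte-like cells, 40 of 54 members were lower in MI-E than in MI, against 32.9% of the genes compared; the medians were -0.12 for members and 0.09 for all genes. Atp5k (0.41) and Sdha (0.33) were highest there, and Ndufs7 (-0.33) and Ndufa8 (-0.30) lowest. In myeloid progenitor-like cells, 38 of 54 members were lower in MI-E than in MI, against 32.2% of the genes compared; the medians were -0.10 for members and 0.11 for all genes. Atp5k (0.36) and Sdha (0.28) were highest there, and Ndufs7 (-0.49) and Atp5g1 (-0.36) lowest. Atp5k, subunit e of ATP synthase, stood at 399, 424 and 505 CPM in Vcan-led monocyte-like cells, a ratio of MI-E over MI of 0.25 (0.20 to 0.30). In Ass1-led monocyte-like cells Atp5k stood at 558, 575 and 763 CPM, a ratio of 0.41 (0.37 to 0.44). Sdha stood there at 115, 122 and 154 CPM, a ratio of 0.33 (0.26 to 0.41). Atp5k and Sdha were the 2 highest members in all 3 of these classes, and Atp5g1 or Ndufs7 was the lowest. In neutrophil precursor-like cells, 39 of 54 members were lower in MI-E than in MI, against 32.4% of the genes compared; the medians were -0.13 for members and 0.10 for all genes. Atp5k (0.33) and Atp5a1 (0.25) were highest there, and Atp5g1 (-0.62) and Ndufs3 (-0.55) lowest. In Ltf-led neutrophil-like cells, 45 of 54 members were lower in MI-E than in MI, against 33.0% of the genes compared; the medians were -0.27 for members and 0.11 for all genes. Ndufa3 (0.27) and Atp5b (0.19) were highest there, and Atp5g1 (-0.95) and Ndufb10 (-0.65) lowest. In Retnlg-led neutrophil-like cells, 48 of 54 members were lower in MI-E than in MI, against 43.1% of the genes compared; the medians were -0.31 for members and 0.05 for all genes. Atp5c1 (0.21) and Sdha (0.12) were highest there, and Ndufa5 (-0.93) and Uqcrq (-0.68) lowest. In Ltf-led neutrophil-like cells Atp5g1 stood at 66.0, 92.3 and 47.9 CPM, a ratio of MI-E over MI of -0.95 (-1.11 to -0.78). In Retnlg-led neutrophil-like cells Ndufa5 stood at 21.8, 32.0 and 16.8 CPM, a ratio of -0.93 (-1.35 to -0.52).

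In stem and multipotent progenitor-like cells, 42 of 54 members were lower in MI-E than in MI, against 39.8% of the genes compared; the medians were -0.09 for members and 0.07 for all genes. Ndufa3 (0.43) and Atp5a1 (0.40) were highest there, and Ndufs8 (-0.40) and Ndufa8 (-0.37) lowest. In Car1-led erythroid-like cells, 37 of 54 members were lower in MI-E than in MI, against 31.3% of the genes compared; the medians were -0.09 for members and 0.14 for all genes. Atp5k (0.35) and Ndufa3 (0.27) were highest there, and Ndufs7 (-0.54) and Ndufb9 (-0.50) lowest. In haemoglobin-led erythroid-like cells, 46 of 54 members were lower in MI-E than in MI, against 44.7% of the genes compared; the medians were -0.36 for members and 0.06 for all genes. Uqcrc1 (0.47) and Ndufs8 (0.38) were highest there, and Ndufb10 (-0.90) and Ndufs5 (-0.88) lowest. In basophil and mast-like cells, 42 of 54 members were lower in MI-E than in MI, against 42.6% of the genes compared; the medians were -0.17 for members and 0.07 for all genes. Cox6a1 (0.43) and Atp5k (0.37) were highest there, and Ndufa8 (-0.84) and Sdhb (-0.74) lowest. In haemoglobin-led erythroid-like cells, where the shift was largest, Ndufb10 had a ratio of MI-E over MI of -0.90 (-1.16 to -0.64) on the levels given above, and MI-E lay between Sham and MI. Set directly against Sham, the MI-E library had member medians of 0.40 in haemoglobin-led erythroid-like cells, 0.05 in Vcan-led monocyte-like cells, -0.33 in mature naive B-like cells and -0.44 in T-like cells.

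Some members kept one direction over all or nearly all classes. The share of all genes that did so was not counted, and all classes come from the same libraries. The counts below therefore do not show whether the members are unusual in this. In MI over Sham, 3 of 54 were higher in all 15 classes: Ndufa6 (median over classes 0.42, range 0.29 to 1.25), Ndufb10 (0.25, range 0.01 to 1.33) and Atp5l (0.36, range 0.09 to 0.88). With median-of-ratios or TMM scaling only Ndufa6 was higher in all 15; Atp5l was higher in 14 and Ndufb10 in 11. By the class total none was lower in all 15, and Ndufs8 and Atp5e were lower in 14; with median-of-ratios or TMM scaling Ndufs8 was lower in all 15. Cox7b, with a median of -0.33, was lower in 13, as were Ndufa3 (-0.23), Ndufb3 (-0.20), Atp5h (-0.16) and Atp5j (-0.22). In MI-E over MI, 24 of 54 were lower in all 15 classes, among them Ndufb10 (-0.43), Uqcrb (-0.38), Ndufa8 (-0.37), Cox5b (-0.36), Atp5g1 (-0.36) and Atp5l (-0.29). Only 3 were higher in all 15: Ndufa3 (0.20), Atp5a1 (0.19) and Atp5b (0.15). With the other scalings 27 to 34 were lower in all 15 and none was higher in all 15; by TMM scaling Ndufa3 was lower in 3 classes, Atp5a1 in 2 and Atp5b in 4. The other 5 of the 8 that were lower in at most 4 classes were Sdha (0.22), Sdhc (0.12), Uqcrc2 (0.15), Cox6a1 (0.19) and Atp5k (0.30). With TMM scaling they were lower in 3, 6, 4, 4 and 4 classes.

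Cox4i1, Atp5b, Sdha and Cox6a1 were followed in every class. Cox4i1, the common isoform of subunit 4, stood at 502, 580.1 and 494 CPM in mature naive B-like cells and at 1042, 1107 and 1065 CPM in Vcan-led monocyte-like cells. Over the 15 classes its ratio ran over -0.16 to 0.67 for MI over Sham and -0.36 to -0.04 for MI-E over MI. Atp5b ran over -0.30 to 0.51 and 0.01 to 0.28 in the same comparisons, and Sdha over -0.18 to 1.06 and -0.02 to 0.38. Cox6a1, the common isoform of subunit 6a, ran over -0.68 to 0.82 and -0.22 to 0.43; its lowest value against Sham was in basophil and mast-like cells, at 268, 167 and 224 CPM.

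Promoter windows (RefSeq, GRCm38.p6, from 250 bases before to 50 after the start) were matched for 45 of 54 members, and 27025 genes have one. Shared motifs were searched on both strands as letters only, since factors known for mitochondrial genes bind such sites. The NRF1 letters were GCGCATGCG in 7 of 45 members' windows (15.6%) and in 1.95% of all; with any base at the middle A, GCGCNTGCG in 21 of 45 members' windows (46.7%) and in 7.12% of all. The ETS core, bound by GABPA, was CCGGAAG in 14 of 45 members' windows (31.1%) and in 9.93% of all. The YY1 letters were AAGATGGCG in 3 of 45 members' windows (6.67%) and in 1.64% of all, and the ERR alpha letters TCAAGGTCA in 2 of 45 members' windows (4.44%) and in 0.466% of all. The looser NRF1 count includes the exact one. The 27025 genes were not matched to the members for GC content of the window or for expression. The part of these in the differing shares was not tested. The 21 members with a looser NRF1 match had a median ratio of MI-E over MI of -0.19, and the 24 without -0.21. For MI over Sham these medians were 0.03 with a match and -0.08 without, and the ranges of both groups overlap.

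The promoters of 4 genes are printed as examples, picked by hand among genes that kept one direction in most classes. Others that did so are not printed, such as Ndufa6 (higher in 15 classes, also with TMM scaling) and Ndufs8 (lower in 14, and in 15 with TMM scaling). The 4 printed are Atp5l and Uqcr11 (higher in MI than in Sham in 15 and 14 classes, and in 14 and 10 with TMM scaling), Atp5g3 (higher in 13, and in 12 with TMM scaling) and Ndufa3 (lower in 13 with both). Each runs 5′ to 3′ on the gene's strand and ends before the first annotated exon; capitals mark the motif letters, on either strand, and they were chosen with the ratios known. In GRCm38.p6 the windows are Atp5l chr9:44920752-44920992 (minus strand), Uqcr11 chr10:80406831-80407071 (minus strand), Atp5g3 chr2:73911327-73911576 (minus strand), Ndufa3 chr7:3617123-3617372 (plus strand).
Atp5l: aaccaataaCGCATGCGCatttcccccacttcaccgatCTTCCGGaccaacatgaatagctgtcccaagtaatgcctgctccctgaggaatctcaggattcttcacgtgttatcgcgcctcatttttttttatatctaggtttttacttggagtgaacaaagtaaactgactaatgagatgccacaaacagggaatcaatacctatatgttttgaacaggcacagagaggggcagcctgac
Uqcr11: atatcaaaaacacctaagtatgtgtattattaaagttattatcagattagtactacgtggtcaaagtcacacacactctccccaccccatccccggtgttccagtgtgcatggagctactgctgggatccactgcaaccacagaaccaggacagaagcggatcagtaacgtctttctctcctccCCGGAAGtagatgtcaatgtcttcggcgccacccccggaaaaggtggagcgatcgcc
Atp5g3: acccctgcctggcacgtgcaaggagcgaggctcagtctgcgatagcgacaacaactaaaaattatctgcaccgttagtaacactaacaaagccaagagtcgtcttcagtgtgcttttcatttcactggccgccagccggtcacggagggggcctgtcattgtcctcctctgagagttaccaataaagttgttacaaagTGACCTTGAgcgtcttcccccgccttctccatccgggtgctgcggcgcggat
Ndufa3: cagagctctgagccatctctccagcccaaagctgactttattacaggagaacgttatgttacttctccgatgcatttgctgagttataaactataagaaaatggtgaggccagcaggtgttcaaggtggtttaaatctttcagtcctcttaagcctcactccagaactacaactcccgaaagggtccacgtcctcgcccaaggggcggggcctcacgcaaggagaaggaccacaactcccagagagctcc
In Atp5l the capitals are the NRF1 letters and the ETS core, both on the opposite strand. In Uqcr11 they are the ETS core on the gene's strand, and in Atp5g3 the ERR alpha letters on the opposite strand. The full windows counted above hold more: Uqcr11 the exact NRF1 letters, Atp5g3 the looser NRF1 letters and Atp5l 2 ETS matches. The further matches do not lie wholly within the printed parts, so they carry no capitals. Ndufa3 holds none of the letters searched in its printed window. A match is a string of letters and no evidence of binding.

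Subunit c of ATP synthase has 3 genes, Atp5g1, Atp5g2 and Atp5g3, whose proteins differ in the import peptide that is cut off and share the mature form. Their shares among each other's UMIs do not depend on the scaling of the class total, but 48 of 135 shares moved beyond their counting interval when cells were thinned to 1000 UMIs, and 8 of 135 with a stricter cell filter. Atp5g2 had the largest share at 34 of the 45 points of class and library, Atp5g3 at 8 and Atp5g1 at 3. The 3 points of Atp5g1 were the Car1-led erythroid-like cells, where it held 45.5, 40.3 and 38.1% in Sham, MI and MI-E. Atp5g3 led in haemoglobin-led erythroid-like cells, with 37.9, 44.0 and 48.2%, and in Ltf-led neutrophil-like cells, with 39.7, 41.2 and 48.9%. In Retnlg-led neutrophil-like cells, where it held 34.4, 41.9 and 42.9%, it led in MI and MI-E.

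The share of Atp5g3 was higher in MI than in Sham in 15 of 15 classes, with exact binomial intervals apart in 8, and higher in MI-E than in MI in 14, with intervals apart in 7. The share of Atp5g1 was lower in MI-E than in MI in 15 of 15 classes, with intervals apart in 7, while against Sham it was higher in MI in 7 and lower in 8. In Vcan-led monocyte-like cells Atp5g1 held 27.3% (26.5% to 28.1%), 33.9% (33.3% to 34.6%) and 26.4% (25.6% to 27.1%) in Sham, MI and MI-E, so MI stood apart from both. Atp5g2 there held 51.8, 40.1 and 45.1% and Atp5g3 20.9, 25.9 and 28.6%. In mature naive B-like cells Atp5g1 held 22.4, 18.7 and 16.6%, Atp5g2 57.9, 58.6 and 60.1% and Atp5g3 19.7, 22.7 and 23.2%.

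**Figure D4:**
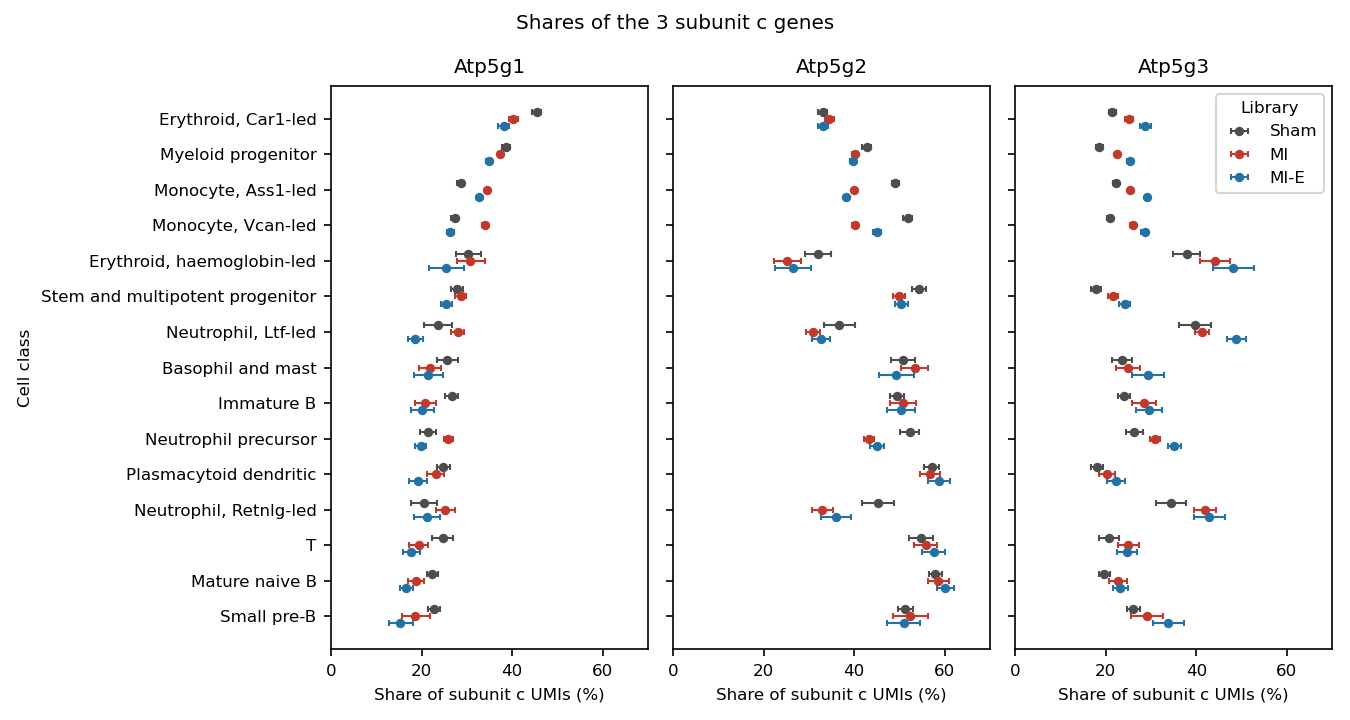
Share of Atp5g1, Atp5g2 and Atp5g3 (percent of the UMIs of the 3 genes, 1 panel each) in each of the 15 classes, with 1 point per library and exact 95% binomial intervals. Atp5g1 is largest in Car1-led erythroid-like cells (45.5, 40.3 and 38.1% in Sham, MI and MI-E), and the Atp5g3 share is higher in MI than in Sham in 15 of 15 classes.

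Tissue isoforms outside the 54 genes were near 0 in most classes, with 1 exception. Cox6a2, the heart and skeletal muscle isoform of complex IV subunit 6a, is also a marker by which plasmacytoid dendritic-like cells were named and a leading gene of 1 of the 2 immature B-like clusters, so its place in these classes is a description. In plasmacytoid dendritic-like cells it stood at 1953, 1059.7 and 956 CPM in Sham, MI and MI-E, 89.5, 83.5 and 80.7% of the UMIs of Cox6a1 and Cox6a2. Cells with a Cox6a2 UMI made up 86.2, 72.9 and 72.9% there, at medians of 3016, 2696 and 2597 UMIs per cell. In Ltf-led neutrophil-like cells, taken as background, they made up 0.789, 0.382 and 0.123%, at medians of 3415, 3473 and 3223 UMIs. Small pre-B-like cells lay above that background, with 6.51, 2.19 and 1.60% of cells at medians of 1221, 1119 and 1113 UMIs and 64.4, 18.8 and 12.9 CPM. Of their 200, 12 and 12 cells with a Cox6a2 UMI, 2.00, 0 and 0% held Siglech, a gene of plasmacytoid dendritic cells. Of their other cells, 0.592, 0.372 and 0.679% held it. Immature B-like cells had 6.06, 1.77 and 1.41% of cells and 47.6, 15.6 and 13 CPM, whereas mature naive B-like cells, at 0.542, 0.234 and 0.189% and medians of 1331, 1000.5 and 1024 UMIs, have binomial intervals that overlap the background's in each library. By CPM, Sham was the highest library for Cox6a2 in plasmacytoid dendritic-like, small pre-B-like and immature B-like cells. In stem and multipotent progenitor-like cells, at 220.3, 31.1 and 62.8 CPM, 83.8, 60.6 and 55.6% of the Cox6a2 UMIs lay in cells that also held Siglech. Counted by cells, as for the small pre-B-like class, 55.1, 43.2 and 33.3% of those with a Cox6a2 UMI held Siglech.

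Cox8b was at 0 UMIs in every class, which over the 15 classes allows up to 0.0484, 0.0317 and 0.0374 CPM in Sham, MI and MI-E, Cox7a1 did not exceed 4.03 CPM and Cox4i2 did not exceed 7.0 CPM. Cycs, the soluble electron carrier cytochrome c, stood at 499.9, 294 and 355 CPM in Car1-led erythroid-like cells and at 479, 501 and 521 CPM in Ass1-led monocyte-like cells. Its level in mature naive B-like cells was 83.6, 80.3 and 67.3 CPM.

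Other lists of the pathway showed which genes went with the members. The other nuclear subunits (29 listed; led by Uqcrh at 634 and Atp5j2 at 389 mean CPM) had list medians below 0 in 15 of 15 classes for MI-E over MI (-0.29 to -0.02) and in 7 for MI over Sham (-0.20 to 0.77; 10 with TMM scaling). In mature naive B-like cells 20 of the 24 measured were lower in MI-E than in MI. The 13 mitochondrially encoded subunits went the other way: their medians for MI-E over MI were above 0 in 15 of 15 classes (0.02 to 0.41), in 14 with TMM or median-of-ratios scaling, and for MI over Sham below 0 in 14 (-0.83 to 0.02). Led by mt-Co1 and mt-Atp6 (5398 and 4529 mean CPM), they summed to 33138, 29886 and 35813 CPM in mature naive B-like cells of Sham, MI and MI-E, and to 22203, 21417 and 26317 CPM in Vcan-led monocyte-like cells. Nuclear and mitochondrial parts of the same complexes therefore differed in direction between MI-E and MI. The share of mitochondrial UMIs per cell, a sign also of cell state and handling, was 2.68, 1.83 and 2.45% by median over all cells kept, and its part in this difference was not tested.

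Assembly factors (led by Cox17, a copper chaperone, at 269.9 mean CPM, and Pet100 at 171) had medians of -0.24 to 0.04 for MI-E over MI, below 0 in 13 of 15 classes and in 15 with TMM scaling. Cytochrome c and the ATPase inhibitor Atpif1 (589 mean CPM) had medians below 0 in 15 (-0.39 to -0.02). The mitochondrial ribosome, at -0.29 to -0.07, and the cytosolic ribosome, at -0.51 to -0.08, were below 0 in 15 of 15. The tricarboxylic acid cycle enzymes (led by Mdh2 and Ogdh, 158 and 89.9 mean CPM) were below 0 in 1 of 15 (-0.07 to 0.23; 4 with TMM scaling), and glycolysis (led by Gapdh and Gpi1, 923 and 438 mean CPM) in 3 (-0.43 to 0.28; 4 with TMM scaling). Regulators of mitochondrial genes (led by Yy1 and Nrf1, 100.5 and 45.9 mean CPM) were below 0 in 2 (-0.12 to 0.38; 3 with TMM scaling). Among the members, complex II had another sign in most classes: its median for MI-E over MI was below 0 in 4 of 15 classes (-0.29 to 0.16), but in 12 with TMM scaling, while with either scaling complexes I, III, IV and V were below 0 in 15 of 15.

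Transcript length moved with the difference between MI-E and MI over all genes. The members are short: their median annotated transcript length is 627 nt, and 37 of 54 are under 800 nt. Among other protein-coding genes under 800 nt, the median log2 ratio of MI-E over MI ran over -0.12 to 0.03 across the 15 classes. It ran over -0.05 to 0.08 for 800 to 1600 nt, 0.07 to 0.18 for 1600 to 3200 nt and 0.10 to 0.21 from 6400 nt. The 37 members under 800 nt had a median of -0.20, with 20 of them lower in all 15 classes, and the 17 longer ones -0.08, with 4. The share of all genes that were lower in all 15 classes was not counted. Over the 54 members, which share libraries, the ratio of MI-E over MI had little relation to log2 transcript length, with a Pearson r of 0.152 and a Spearman rho of 0.082, as a description. The GC content of transcripts, their share of G and C bases, moved with the difference too. In every class, other protein-coding genes under 45% GC had a higher median of MI-E over MI than those from 55%. The medians were 0.09 and 0.02 in mature naive B-like cells and 0.12 and -0.02 in small pre-B-like cells. Under 45% lie 4 members and from 55% 15. The parts of transcript length and GC content in the members' lower level in MI-E were not tested.

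**Figure D5:**
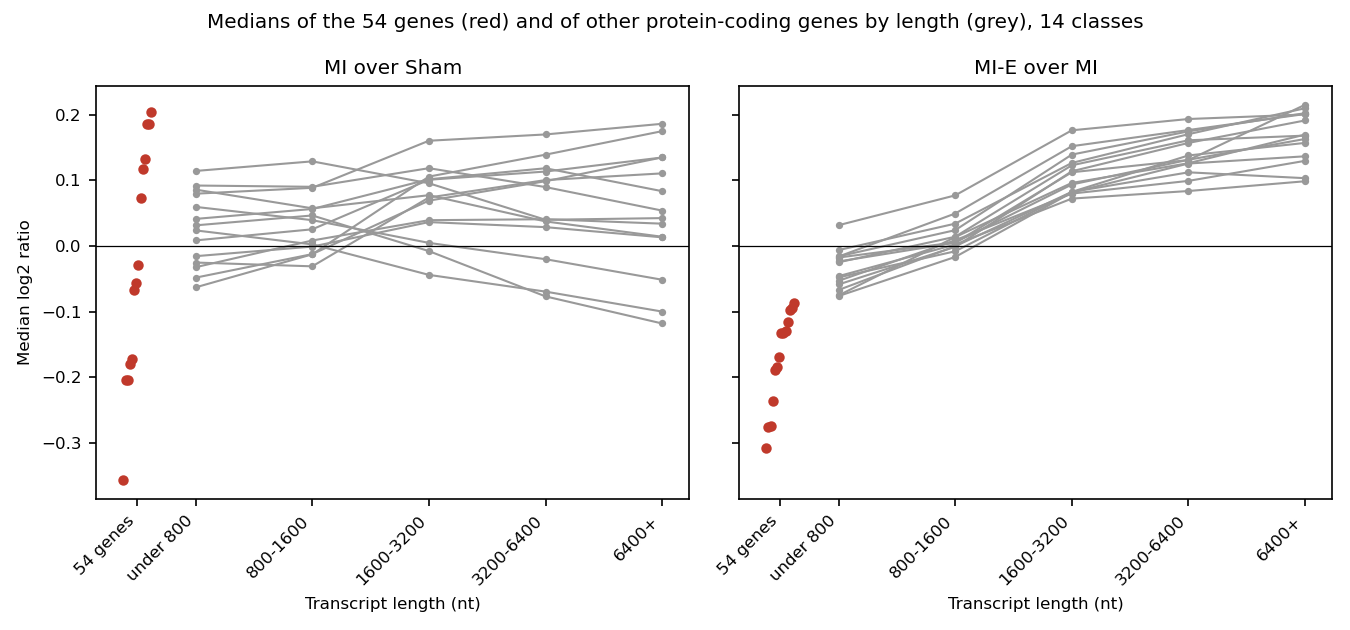
Median log2 ratio (vertical axis; left panel MI over Sham, right panel MI-E over MI) of other protein-coding genes (grey lines, 1 per class) in 5 bins of transcript length in nt (horizontal axis), with the medians of the 54 genes as red points; the 14 classes other than haemoglobin-led erythroid-like cells are drawn. For MI-E over MI, genes under 800 nt lie at -0.08 to 0.03 and those from 6400 nt at 0.10 to 0.21, and the red points all lie below 0.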

How the data were processed

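The authors deposited UMI counts per gene and barcode, 1 table for each of 3 libraries; the submitters' processing notes name Cell Ranger 5.0.1 and mm10. No annotation release is stated there. Many members have processed pseudogenes or near copies; no source used here says how reads shared with them were counted, so their levels are uncertain by that much. The tables hold 25721, 23810 and 22857 barcodes for Sham, MI and MI-E with 99657072, 127330601 and 109451500 UMIs; 170 barcode sequences occur in both Sham and MI, 176 in both Sham and MI-E and 156 in both MI and MI-E.

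Barcodes under 300 genes or 500 UMIs, or over 10% mitochondrial UMIs, were dropped, and 15.6%, 12.8% and 13.0% of the rest were removed as likely doublets (Scrublet in scanpy 1.11.5). The remaining cells were clustered on 2000 variable genes without the members, with 40 components, 20 neighbours and Leiden resolution 1 (leidenalg 0.10.2), and B lineage cells once more. Cluster names rest on marker lists, at least 3 detected markers and a score chosen after seeing the data. Levels are CPM of the UMIs summed over a class in a library; precision follows the UMIs of a class. Levels carry Poisson, shares Clopper-Pearson and ratios conditional binomial intervals, all exact, at 95% and for counting error only. Ratio code was tested on simulated data. Transcript lengths and GC contents came from GENCODE M21. The work used R 4.3.3 with edgeR 4.0.16 (TMM factors only) and Python 3.11.15 with pandas 2.3.3, scipy 1.17.1 and numpy 2.4.6.

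Members and lists were chosen with earlier results of these data known. Named are the 3 members of each complex (2 of complex II) with the largest mean CPM, the 4 highest and 4 lowest members of MI over Sham and 2 and 2 of MI-E over MI in a class, the subunit c genes, Sdha, Cox4i1, Cox6a1 and Atp5b, tissue isoforms, Cycs, 2 leading genes of each other list, and the 3 members least like the rest. Members named for the number of classes in which they were higher or lower, and the printed promoters, were chosen after their values were seen. With 1 library per group there is no test, no p-value and no standard error. Alternatives covered the cell filter, doublets, resolution, variable genes, scaling, equal weight of cells, thinning to 1000 UMIs and the minimum level.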

Additional observations from a re-analysis of the deposited data

Results flagged for a closer look

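For MI over Sham, the median log2 ratio of the 54 genes was -0.356 in T-like cells and 0.205 in Vcan-led monocyte-like cells, opposite directions under the same contrast. The difference between these classes was not tested, since each group has 1 library.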

How the results depend on the processing

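No paired analysis was possible because each group has 1 library, and leaving out a replicate is likewise impossible. Over all alternatives the class medians were below 0 for MI over Sham in 7 to 9 classes and for MI-E over MI in all of the 15 classes, or all 14 where only 14 were found (doublets kept, Leiden resolution 0.5); with doublets kept there was no Ass1-led monocyte-like class. The highest class stood 3.27 to 5.54-fold above the lowest over the alternatives. Of 309 summed levels of a class and library under the alternatives, 190 moved beyond their counting interval and 119 did not. With a total without mitochondrial, ribosomal, haemoglobin and receptor genes 45 of 45 moved, and with equal weight of cells 30 of 45. Scaling moved the all-gene median by -0.50 to 0.04 for MI over Sham (TMM) and by -0.14 to -0.04 for MI-E over MI, and ratios read relative to it. For MI over Sham, the median moved to 0.12 in Ass1-led monocyte-like cells (thinning), to 0.094 (doublets kept), 0.093 (median of ratios) and 0.092 (TMM) in myeloid progenitor-like cells and to 0.13 in stem and multipotent progenitor-like cells (doublets kept, from -0.07). In haemoglobin-led erythroid-like cells it moved to 0.51 (stricter filter), 0.53 (doublets kept), 0.38 (reduced total), 0.26 (median of ratios) and 0.26 (TMM). For MI-E over MI, median-of-ratios and TMM scaling gave -0.26 and -0.25 in Vcan-led monocyte-like, -0.20 and -0.20 in Ass1-led monocyte-like, -0.24 and -0.23 in neutrophil precursor-like, -0.20 and -0.20 in myeloid progenitor-like and -0.23 and -0.23 in Car1-led erythroid-like cells; equal weight of cells gave -0.16 in the Ass1-led class. Beyond the scalings themselves the cause was not tested. The smallest class and library holds 690328 UMIs, which limits the precision of low members there.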
